A study of Rattus norvegicus with 8 samples.

Results

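The SLC25 family of mitochondrial solute carriers was examined in the livers of male Goto-Kakizaki (GK) rats, an inbred strain with non-obese type 2 diabetes. The family was taken as every probe set, other than the manufacturer's controls, with exactly 1 gene symbol of the form Slc25a followed by a number in the platform annotation. This gave 58 probe sets for 40 genes, out of 14217 named genes on the array. The persimmon peel diet was AIN-93G, a purified rodent diet, with persimmon peel (PP) extract added, and the control diet was AIN-93G alone. Each diet was fed for 12 weeks to 4 rats, and each liver was measured on 1 array at an age of 18 weeks. All 8 rats were of the same strain and sex, so no non-diabetic strain enters the comparison, and the amount of extract in the diet is not given in the sources used here. The question was whether expression of the carriers differed between the diets.

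SLC25 proteins sit mostly in the inner mitochondrial membrane, where each moves a metabolite, nucleotide, cofactor or ion that the membrane itself does not let through. They are built from 3 repeated membrane modules and usually exchange a solute of the matrix for a solute of the cytosol. In liver they link mitochondria to the urea cycle, gluconeogenesis, fatty acid oxidation, lipid synthesis and ATP export. Their genes lie in the nucleus, and the proteins are carried across the outer membrane and inserted by a dedicated import pathway.

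A probe set is a group of short probes that reads 1 stretch of a transcript, and its value is a MAS5 signal in linear intensity units. Signals of different probe sets depend on their probes, so levels of different genes are not compared here, and a gene with several probe sets is represented by its brightest. A probe set was tested if it was not among the dimmest 50% of the array, and called if its adjusted p in limma's fit over all 15521 tested probe sets was below 0.05. Log2 fold changes are persimmon peel minus control diet, with the standard error (SE) or 95% interval of that fit. Of the 40 SLC25 genes 32 had a tested probe set, as did 44 of the 58 probe sets. The 8 genes with no tested set were Slc25a18, Slc25a21, Slc25a27, Slc25a31, Slc25a34, Slc25a35, Slc25a41 and Slc25a53, and in their brightest sets no array passed 55.5 units. For Slc25a31, an ADP/ATP carrier known from testis, and Slc25a18, a glutamate carrier known from brain, every array stayed at or below 13.7 units, the highest signal of the 15 Bacillus subtilis control sets.

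The tissue label was set against marker genes. All 9 hepatocyte markers on the array were tested, whereas 0 of 4 muscle markers and 0 of 4 adipocyte markers were. The summed signal of the hepatocyte markers was 67509 to 71346 on the persimmon peel diet, against 73977 to 79181 on the control diet, without overlap, and 1 of the 9, Tat, was called lower. The 5 macrophage markers summed to 3825 to 6391 on the persimmon peel diet and 3446 to 4583 on the control diet, and 0 of them were called. The 5 sinusoidal endothelium markers summed to 3659 to 4601 on the persimmon peel diet and 4491 to 4751 on the control diet, and 1 of them, Fcgr2b, was called lower. Of the stellate cell, cholangiocyte, lymphocyte and erythroid markers 0 were called in either direction. Among the brightest sets of all 9174 tested named genes 1.93% were called lower and 0.469% higher. The part of these markers in the carriers' values was not tested. In whole liver, fewer cells of a type and less RNA per cell cannot be told apart. Of 2 controls for RNA quality, 1 differed between the diets. Beta-actin is read by probe sets at its middle and at its 3' end, and the log2 ratio between them averaged -1.06 ± 0.11 on the persimmon peel diet and -0.76 ± 0.02 on the control diet (SD, n = 4 each; p = 0.0286 in a two-sided exact permutation test, which can go no lower here). Persimmon peel arrays 1 and 3 had the lowest ratios, -1.18 and -1.09. For Gapdh the like ratio averaged -0.59 ± 0.05 on the persimmon peel diet and -0.58 ± 0.03 on the control diet (SD, n = 4 each; p = 0.857 in the same exact permutation test), a difference within the spread between livers.

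Most carriers differed little between the diets, and the only gene called in its brightest set was Slc25a16, a carrier linked to the supply of coenzyme A. Of the 32 brightest sets 1 was called lower and 0 higher, or 3.13% lower, beside 1.93% lower and 0.469% higher among the brightest sets of all 9174 tested named genes. At an unadjusted p under 0.05 the numbers were 4 lower (12.5%) and 0 higher, beside 9.48% lower and 6.8% higher among all named genes. The ordinary linear model per probe set called 0 of the 32 in either direction, beside 0.0193% lower and 0% higher over all tested sets. Over the 32 brightest sets 17 log2 fold changes were negative and 15 positive, with a median of -0.01, beside 0.01 over the brightest sets of all named genes. In 27 of the 32 genes the 95% interval lay within a 1.5-fold change in either direction. Over all 44 tested SLC25 sets 4 were called lower and 0 higher, or 9.09% lower, beside 4.53% lower and 0.425% higher over the whole array. The 4 called sets belonged to Slc25a13, Slc25a15, Slc25a16 and Slc25a46. With each array left out in turn between 1 set (without control array 4 or persimmon peel array 1) and 6 sets (without persimmon peel array 2) were called lower. In the same 3 fits 1.89%, 2.22% and 6.07% of all tested sets were called lower.

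**Figure D1:**
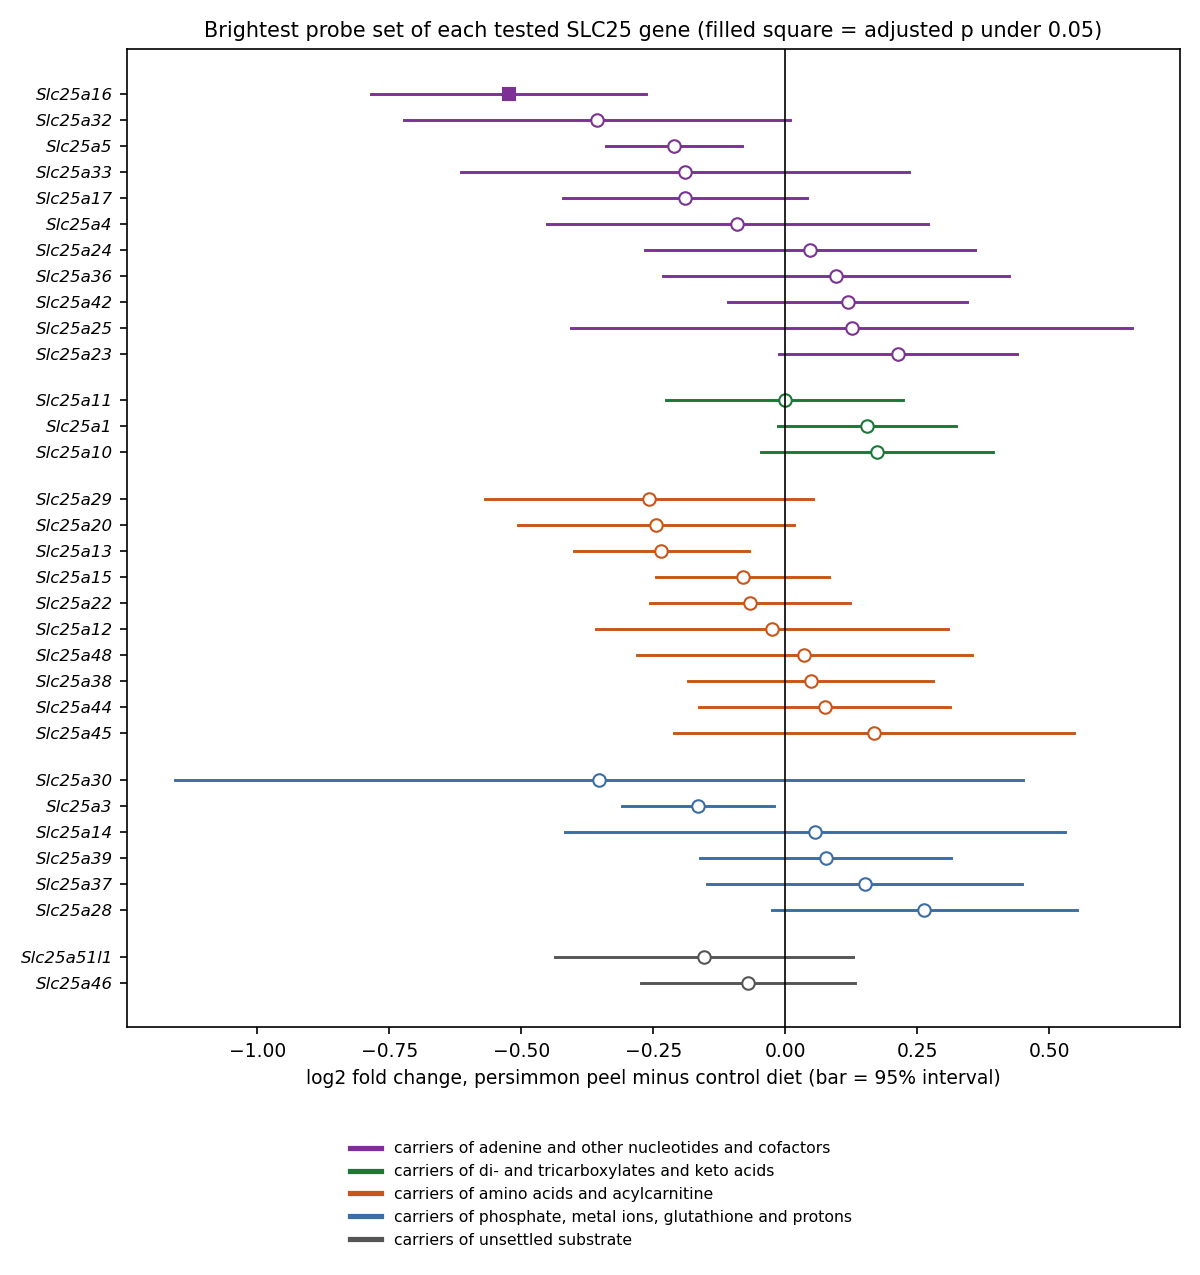
Log2 fold change (persimmon peel minus control diet) of the brightest probe set of each of the 32 tested SLC25 genes, with 95% intervals, grouped and coloured by the kind of solute; the filled square marks an adjusted p below 0.05. Slc25a16 is the only filled symbol, 17 values lie below 0 and 15 above it, and the widest interval is that of Slc25a30.

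For 3 of the 4 genes with a called set, the sequence around the annotated transcription start is shown beside the values. It runs from 250 bases before that start to 50 after it. The sequences are those of RefSeq on GRCr8, in which 34 of the 40 genes were matched, and are written 5′ to 3′ on the strand of the gene. Capitals mark a CCAAT box (CCAAT or ATTGG) or a GC box (GGGCGG or CCGCCC).
Slc25a16 (chr20:25714958-25715257, minus strand): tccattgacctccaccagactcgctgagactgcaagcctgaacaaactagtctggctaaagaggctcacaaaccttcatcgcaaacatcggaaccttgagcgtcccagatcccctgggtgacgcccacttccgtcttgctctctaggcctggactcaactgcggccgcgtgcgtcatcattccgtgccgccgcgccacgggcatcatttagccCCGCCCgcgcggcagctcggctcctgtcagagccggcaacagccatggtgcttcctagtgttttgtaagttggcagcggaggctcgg
Slc25a13 (chr4:35328311-35328610, minus strand): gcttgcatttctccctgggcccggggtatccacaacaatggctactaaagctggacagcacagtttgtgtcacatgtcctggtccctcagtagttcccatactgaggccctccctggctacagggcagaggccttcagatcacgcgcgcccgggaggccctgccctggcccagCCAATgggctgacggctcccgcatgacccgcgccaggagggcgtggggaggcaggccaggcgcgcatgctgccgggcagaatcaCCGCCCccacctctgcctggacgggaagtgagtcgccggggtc
Slc25a15 (chr16:76336620-76336919, plus strand): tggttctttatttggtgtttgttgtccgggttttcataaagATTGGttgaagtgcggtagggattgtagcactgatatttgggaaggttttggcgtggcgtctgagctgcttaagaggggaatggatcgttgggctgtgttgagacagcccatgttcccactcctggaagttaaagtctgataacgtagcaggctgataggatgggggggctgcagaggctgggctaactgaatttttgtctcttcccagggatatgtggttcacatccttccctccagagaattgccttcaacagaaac
The Slc25a13 window held 1 CCAAT box and 1 GC box, the Slc25a15 window 1 CCAAT box, and the Slc25a16 window 1 GC box. Over the 34 SLC25 windows 55.9% held a CCAAT box and 73.5% a GC box, beside 37.7% and 34.9% of all 27457 windows, counted on both strands. Other motifs searched were the NRF1 core (2.94% of the SLC25 windows, 4.71% of all) and the cAMP response element (5.88% and 1.91%). The PPAR direct repeat was in 0% and 0.0583%. CCAAT and GC boxes are common elements of promoters, and all these matches describe letters only. Just before its annotated start the Slc25a15 window has a pyrimidine-rich stretch and AG, as the end of an intron does. Whether that window is a promoter was not tested.

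Among the 13 carriers of nucleotides and cofactors on the array, 11 were tested and 1, Slc25a16, was lower. Its signals were 313, 433, 317 and 396 units in the persimmon peel livers 1 to 4 and 522, 517, 462 and 582 in the control livers 1 to 4. Every persimmon peel liver lay below every control liver. The means were 365 ± 59.5 and 521 ± 49.2 units (SD, n = 4 each), and the log2 fold change was -0.52 (SE 0.12, adjusted p = 0.0242). Slc25a16 has 1 probe set, so a change of the whole transcript and of the stretch it reads cannot be told apart. The call ended without control array 1 (adjusted p = 0.0624), 2 (0.0527) or 4 (0.0895) and without persimmon peel array 1 (0.0855) or 3 (0.0588). The value was -0.33 (adjusted p = 0.223) without persimmon peel arrays 1 and 3 and 0.0028 (adjusted p = 1) with the beta-actin ratio as a covariate, a fit that separates ratio and diet poorly because the ratio does not overlap between the diets, and that called 0 of the 15521 tested sets. Without arrays 1 and 3 the share of all tested sets called lower was 0.49%.

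Slc25a5, one of the ADP/ATP translocases that export ATP from the matrix, lay lower in every persimmon peel liver than in any control liver but was not called. Its signals were 4423, 4712, 4520.0 and 4706 on the persimmon peel diet, against 5249.9, 5337, 5100.2 and 5561 on the control diet. The log2 fold change was -0.21 (SE 0.06, adjusted p = 0.0592). Livers of the same diet varied little, with a within-diet SD of 0.05 on the log2 scale beside a median of 0.19 over all tested sets. Of 22 alternatives 3 called Slc25a5 lower, among them the fit without persimmon peel array 2 (-0.22, adjusted p = 0.0439). Under quantile normalization its log2 fold change was -0.13 (adjusted p = 0.156), and with the beta-actin ratio as a covariate -0.12. The adjusted p was 0.201 with no filter and 0.227 without the intensity trend. Slc25a4, the ADP/ATP translocase best known from heart and muscle, had a log2 fold change of -0.09 (95% interval -0.45 to 0.27).

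Slc25a32, a carrier of folate and flavin, had 47.6, 74.8, 50.8 and 69.2 units on the persimmon peel diet and 68.8, 78.0, 75.3 and 83.2 on the control diet. The groups overlapped, and the log2 fold change of -0.36 (adjusted p = 0.267) was not called. The ATP-Mg/phosphate carriers, which adjust the adenine nucleotide pool of the matrix under the control of calcium, were not called. Slc25a23 had 704, 596, 826 and 761 units on the persimmon peel diet and 643, 581, 598 and 653 on the control diet, with a log2 fold change of 0.21 (adjusted p = 0.282). Its dimmer tested set gave 0.30 (adjusted p = 0.288). The value of Slc25a24, another of these carriers, was 0.05 (95% interval -0.26 to 0.36), and Slc25a25 is described with the spread between livers. Slc25a42, which exchanges coenzyme A for adenine nucleotides, had 318, 286, 369.7 and 339.9 units on the persimmon peel diet and 307, 280.2, 303 and 317 on the control diet, with overlap, and a log2 fold change of 0.12 (adjusted p = 0.571). Of the other members of this group, Slc25a17, a peroxisomal carrier of cofactors, was at -0.19 (adjusted p = 0.358), and the pyrimidine nucleotide carriers Slc25a33 and Slc25a36 were at -0.19 (adjusted p = 0.637) and 0.10 (adjusted p = 0.774). Slc25a51, the carrier of NAD, was not analysed here, since its 2 probe sets carry 2 gene numbers. Slc25a51l1, named as a relative of it, had a log2 fold change of -0.15 (adjusted p = 0.556).

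Among the 11 carriers of amino acids and acylcarnitine on the array, 10 were tested in their brightest set and 0 were called, while 1 dimmer set each of Slc25a13 and Slc25a15 was lower. Slc25a13, or citrin, is the aspartate/glutamate exchanger of liver, which feeds aspartate to the urea cycle and carries the malate-aspartate shuttle. Its dimmer set had 617, 755, 574 and 708 units on the persimmon peel diet and 1014, 905, 1015 and 1260.2 on the control diet. All persimmon peel livers lay below all control livers, and the log2 fold change was -0.66 (SE 0.12, adjusted p = 0.00573). Its brightest set had 2905, 2968, 3567 and 3296 units on the persimmon peel diet, against 3710.1, 3576, 3641 and 4018 on the control diet. Here too the diets did not overlap, but the change was smaller, at -0.23 (SE 0.08, adjusted p = 0.101), and was called only without persimmon peel array 3 (-0.29, adjusted p = 0.0438) among the fits that left out 1 array. The call of the dimmer set held with each array left out in turn, and ended without persimmon peel arrays 1 and 3 together (-0.51, adjusted p = 0.0829) and with the beta-actin ratio as a covariate (-0.32, adjusted p = 1). Slc25a12, the paralogue of citrin that prevails in brain and muscle, had a log2 fold change of -0.02 (95% interval -0.36 to 0.31).

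Slc25a15, which brings ornithine into the matrix for the urea cycle in exchange for citrulline, was read by 5 tested sets and 1 that was not tested. Only the dimmest tested set was called, with 583, 835, 525 and 504 units on the persimmon peel diet and 861, 802, 1016 and 1075 on the control diet. Persimmon peel liver 2 lay within the control range and the other 3 below it, and the log2 fold change was -0.64 (SE 0.15, adjusted p = 0.0222). The brightest set had 2936, 2787, 3329 and 2684 units on the persimmon peel diet and 3046, 3229, 2975 and 3123 on the control diet, a log2 fold change of -0.08 (95% interval -0.24 to 0.08). The other 3 tested sets gave -0.01, -0.09 and -0.24 (adjusted p = 0.974, 0.605 and 0.109), and the last of these was called without persimmon peel array 2 (-0.29, adjusted p = 0.0441). The call of the dimmest set ended without control array 3 (adjusted p = 0.0647) or 4 (0.0853), without persimmon peel array 1 (0.0668), 3 (0.0669) or 4 (0.0621), without persimmon peel arrays 1 and 3 together (-0.52, adjusted p = 0.218) and with the beta-actin ratio as a covariate (-0.0045, adjusted p = 1).

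Slc25a20 exchanges acylcarnitine for free carnitine and so brings fatty acids to beta-oxidation. It had 559, 559, 784 and 737 units on the persimmon peel diet and 761, 701, 762 and 877 on the control diet. Persimmon peel livers 1 and 2 lay below all controls and livers 3 and 4 among them, and its change of -0.24 on the log2 scale (SE 0.12, adjusted p = 0.287) was not called. Slc25a22, a carrier of glutamate, had 1726, 1649.8, 2012 and 1651 units on the persimmon peel diet and 1918, 1952, 1629.6 and 1865 on the control diet. The ranges overlapped, with a log2 fold change of -0.07 (95% interval -0.26 to 0.12). Slc25a44, a carrier of branched-chain amino acids, gave 0.07 (adjusted p = 0.758) in its brightest set and -0.39 (adjusted p = 0.142) in its dimmer set, whose arrays did not overlap between the diets. The basic amino acid carrier Slc25a29 was at -0.26 (adjusted p = 0.352), the glycine carrier Slc25a38 at 0.05 (adjusted p = 0.850), and Slc25a45 and Slc25a48 were at 0.17 and 0.04 (adjusted p = 0.639 and 0.923). The dimmer set of Slc25a48 was at 0.02 (adjusted p = 0.967).

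The 3 tested carriers of di- and tricarboxylates, of 6 on the array, were not called. Slc25a1 exports citrate, the source of cytosolic acetyl-CoA for lipid synthesis. Its signals were 2707, 2294, 2765 and 2501 on the persimmon peel diet and 2324, 2463, 2249 and 2170.4 on the control diet. Persimmon peel liver 2 lay among the controls and the other 3 above them, and the log2 fold change was 0.16 (SE 0.08, adjusted p = 0.293). Slc25a10, which exchanges malate or succinate for phosphate, had 1638, 1398, 2027 and 1883 units on the persimmon peel diet and 1478, 1511, 1536 and 1575 on the control diet. The persimmon peel livers were spread to both sides of the controls, and the values were 0.17 (adjusted p = 0.373) in this set and 0.20 (adjusted p = 0.540) in the dimmer. For Slc25a11, the oxoglutarate/malate carrier of the malate-aspartate shuttle, the signals were 911, 867, 1175 and 1065 on the persimmon peel diet and 1027, 1034, 885 and 1055 on the control diet. The means were 1004 ± 142 and 1000.3 ± 77.9 units (SD, n = 4 each), a log2 fold change of -0.0011 with a 95% interval of -0.23 to 0.22.

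In the group of phosphate, metal, glutathione and proton carriers, 6 of 7 genes on the array were tested and 0 were called. Slc25a3 supplies phosphate for ATP synthesis. Its signals were 2637, 2638, 2866 and 2774 on the persimmon peel diet and 3144, 3034, 2879 and 3185 on the control diet. The diets did not overlap, though persimmon peel liver 3 and control liver 3 were close, and the log2 fold change was -0.17 (SE 0.07, adjusted p = 0.184). Together with Slc25a16, Slc25a5 and Slc25a13, Slc25a3 made 4 brightest sets of 32, or 12.5%, with every persimmon peel liver below every control liver, beside 7.21% over all named genes. In the other direction 0 of 32 lay apart, beside 3.24% over all named genes. The mitoferrin Slc25a28, which imports iron, had 187, 159, 177 and 147 units on the persimmon peel diet and 152, 157, 111 and 140.4 on the control diet, with a log2 fold change of 0.26 (adjusted p = 0.300), and its paralogue Slc25a37 was at 0.15 (adjusted p = 0.586). Slc25a14, a relative of the uncoupling proteins, was at 0.06 (adjusted p = 0.919). The glutathione carrier Slc25a39 had 1526, 1330.0, 2086 and 1636 units on the persimmon peel diet and 1534, 1562, 1485 and 1572 on the control diet. Persimmon peel liver 3 was the highest of all 8 and liver 2 the lowest, and the log2 fold change was 0.08 (adjusted p = 0.749), beside -0.25 (adjusted p = 0.615) in its dimmer set.

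Slc25a46, a protein of the outer membrane that takes part in mitochondrial fission and lipid traffic rather than in a known exchange, had 1 called set. In that dimmer set the signals were 140.3, 218, 157 and 166 on the persimmon peel diet and 270.0, 247, 211 and 303 on the control diet, with persimmon peel liver 2 just above control liver 3. The log2 fold change was -0.61 (SE 0.15, adjusted p = 0.0291). The brightest set had 558, 601, 677 and 658 units on the persimmon peel diet and 688, 648, 598 and 682 on the control diet, a log2 fold change of -0.07 (95% interval -0.27 to 0.13). The call of the dimmer set ended in 6 of the 8 fits that left out an array (adjusted p between 0.0551 and 0.106), all but those without control array 3 or persimmon peel array 2. It also ended without persimmon peel arrays 1 and 3 together (-0.43, adjusted p = 0.262) and with the beta-actin ratio as a covariate (0.051, adjusted p = 1).

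**Figure D2:**
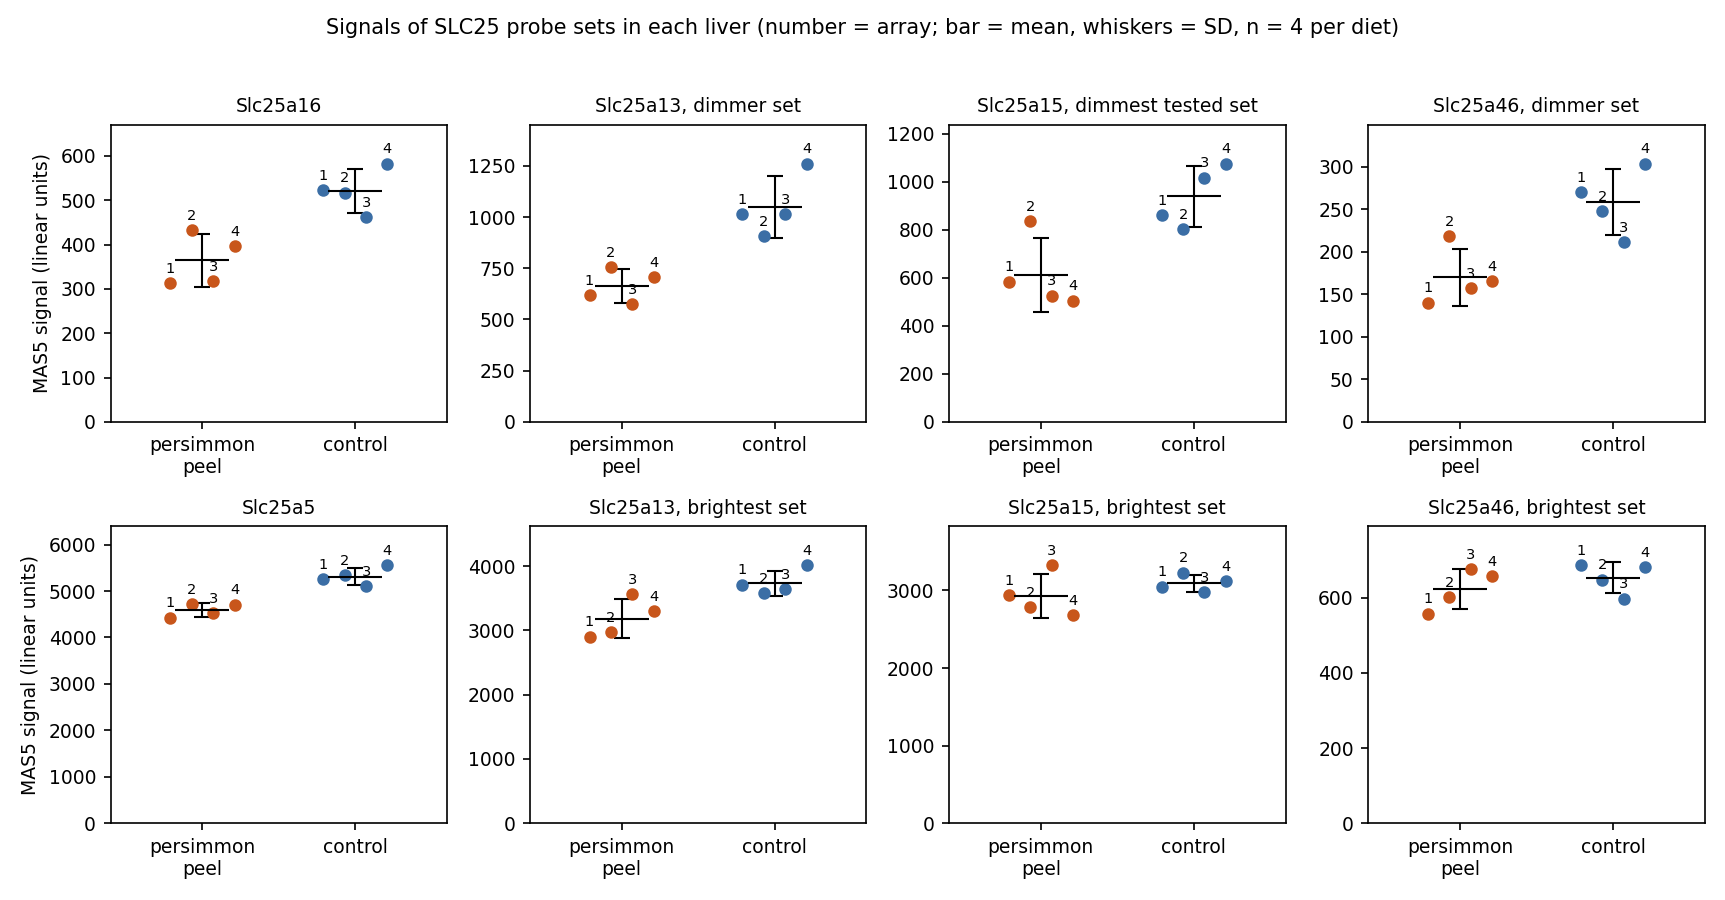
MAS5 signal (linear units) in each liver for the 4 called SLC25 probe sets (upper row) and for Slc25a5 and the brightest sets of Slc25a13, Slc25a15 and Slc25a46 (lower row), with the persimmon peel diet on the left and the control diet on the right of each panel; numbers are array numbers, bars are means and whiskers SD (n = 4). In the upper row only persimmon peel array 2 of Slc25a15 and of Slc25a46 reaches the control range, whereas the brightest sets of these 2 genes overlap.

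For Slc25a13, Slc25a15 and Slc25a46 a dimmer set was called and the brightest was not. Of the 12 tested sets that were not the brightest of their gene 3 were called lower, or 25%, beside 13.8% of such sets over all named genes, and their median log2 fold change was -0.24, beside -0.12 over all named genes. In the 9 genes with several tested sets, the log2 difference of the dimmest set from the brightest was itself compared between the diets with limma. It was called lower in 0 and higher in 0 of the 9, beside 11.9% lower and 0.915% higher among the 2295 genes so tested, and 4 had a lower and 0 a higher difference at an unadjusted p under 0.05, beside 25.9% lower and 4.62% higher among those genes. These 4 were Slc25a46 (-0.54, adjusted p = 0.0517), Slc25a44 (-0.46, adjusted p = 0.0643), Slc25a15 (-0.56, adjusted p = 0.0892) and Slc25a13 (-0.42, adjusted p = 0.0935). Without persimmon peel array 2, 3 of them were called, in a fit that called 20.2% of all such genes lower: Slc25a13 (-0.52, adjusted p = 0.0354), Slc25a15 (-0.74, adjusted p = 0.0122) and Slc25a46 (-0.68, adjusted p = 0.00767). Where each set lies along its transcript was not analysed here, and the part of RNA quality in these differences was not tested.

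**Figure D3:**
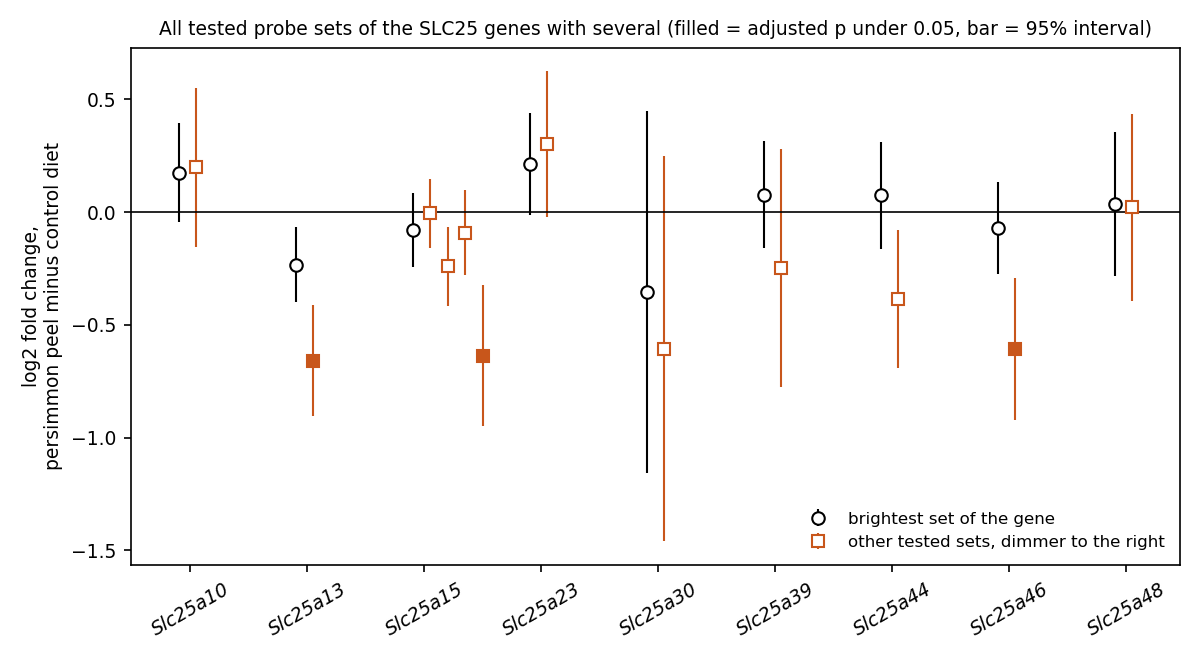
Log2 fold change (persimmon peel minus control diet) with 95% interval for every tested probe set of the 9 SLC25 genes that have several, the brightest set of a gene as a circle and the others as squares that grow dimmer to the right; filled symbols have an adjusted p below 0.05. The 3 filled squares are the dimmest tested sets of Slc25a13, Slc25a15 and Slc25a46, between -0.66 and -0.61, while the brightest sets of those genes lie between -0.23 and -0.07.

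Some carriers varied between livers of the same diet more than between diets. Slc25a25, a calcium-regulated ATP-Mg/phosphate carrier, had 1733, 780.5, 2151 and 1603 units on the persimmon peel diet and 1978, 1234, 1057 and 1275 on the control diet. Persimmon peel livers 3 and 2 were the highest and the lowest of all 8, the within-diet SD of 0.53 on the log2 scale was at the 98.5th percentile of all tested sets, and the log2 fold change of 0.13 had a 95% interval of -0.40 to 0.66. Slc25a30, a relative of the uncoupling proteins known from kidney, is described because of its spread and was chosen after its values were seen. Its brighter set had 1117, 371, 807 and 791 units on the persimmon peel diet and 1940.3, 1158, 728 and 429.8 on the control diet. Its dimmer set had 178, 54.1, 113 and 120.3 units on the persimmon peel diet and 387, 185, 122 and 80.6 on the control diet. In both sets persimmon peel liver 1 and control liver 1 were the highest of their diet and persimmon peel liver 2 and control liver 4 the lowest. The within-diet SDs were 0.81 and 0.85 on the log2 scale, at the 99.8th percentile of all tested sets, and the log2 fold changes of -0.35 (95% interval -1.16 to 0.45) and -0.61 (95% interval -1.46 to 0.25) were not called.

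**Figure D4:**
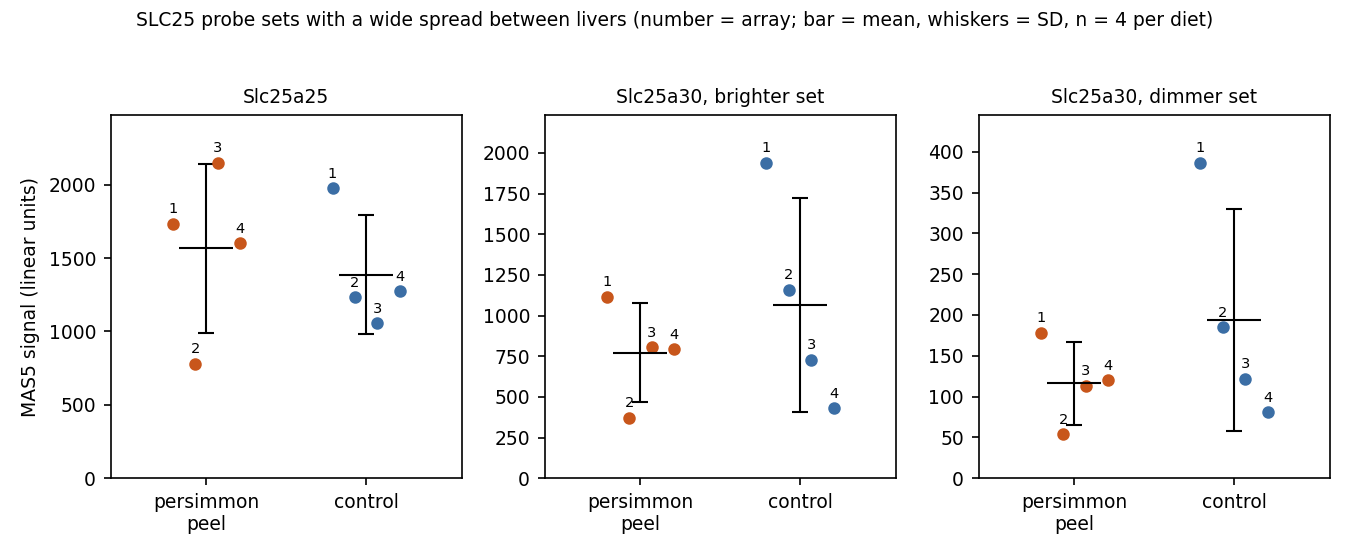
MAS5 signal (linear units) in each liver for Slc25a25 and for both tested probe sets of Slc25a30, with the persimmon peel diet on the left and the control diet on the right of each panel; numbers are array numbers, bars are means and whiskers SD (n = 4). Within the control diet the brighter Slc25a30 set runs between 429.8 and 1940.3 units, and the persimmon peel livers lie between 371 and 1117.

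Genes that work beside the carriers were counted from lists by function, in their brightest sets. Of 15 genes that import and insert carriers, all tested, 0 were called in either direction (median log2 fold change -0.09), and Tomm70, the outer membrane receptor that recognises carrier precursors, was at -0.21 (adjusted p = 0.157). Of 13 other transport proteins of mitochondrial membranes 2 were lower and 0 higher, with a median log2 fold change of -0.0013, beside 1.93% lower and 0.469% higher among all named genes. These 2 were Mpc1, a subunit of the pyruvate carrier, with 4362, 4253, 4036 and 4407 units on the persimmon peel diet and 4863, 5617, 4856 and 5390.4 on the control diet (-0.28, SE 0.07, adjusted p = 0.0295), and Vdac3, a pore of the outer membrane (-0.32, SE 0.08, adjusted p = 0.0265). The partner subunit Mpc2 was at -0.08 (95% interval -0.30 to 0.14). Of 21 enzymes that use or make the carried metabolites 3 were lower and 0 higher (median -0.07), beside the same 1.93% and 0.469%. They were Got1, the cytosolic aminotransferase of the malate-aspartate shuttle (-0.58, adjusted p = 0.0446), Otc, which joins the ornithine brought in by Slc25a15 to carbamoyl phosphate (-0.30, adjusted p = 0.0246), and Glud1, which releases ammonia from glutamate (-0.29, adjusted p = 0.0378). Each of these 5 calls ended in 5 to 7 of the 8 fits that left out an array. All 5 also ended with no filter (adjusted p between 0.0566 and 0.147), without the intensity trend (0.0985 to 0.162), with the ordinary model (0.0885 to 0.228) and with only the brightest set of each gene tested (0.0575 to 0.0847). All but Vdac3 (0.0427) ended under quantile normalization (0.0807 to 0.106), and Got1 (0.0576) and Glud1 (-0.20, 0.141) ended with the sets of a gene averaged. All 5 ended without persimmon peel arrays 1 and 3 together (adjusted p between 0.151 and 0.300) and with the beta-actin ratio as a covariate (adjusted p = 1). The family's relatives under other symbols were counted as well, and 0 of the 3 tested of 5 were called: Mtch1 at 0.32 (adjusted p = 0.0808), Ucp2 at 0.34 (adjusted p = 0.179) and Mtch2 at -0.12 (adjusted p = 0.355). Mtch1, a relative of the carriers in the outer membrane, had 569, 533, 675 and 577 units on the persimmon peel diet and 427, 494, 485 and 476 on the control diet. Every persimmon peel liver lay above every control liver. Of 22 alternatives 2 called Mtch1 higher, quantile normalization (0.36, adjusted p = 0.0213) and the fit without persimmon peel array 2 (0.37, adjusted p = 0.0466). Its value was 0.25 (adjusted p = 0.139) without persimmon peel array 3. It was 0.24 (adjusted p = 0.326) without persimmon peel arrays 1 and 3 together and 0.15 with the covariate. Ucp1 and Ucp3 were not tested.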

How the data were processed

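Total RNA of 8 livers was turned into biotin-labelled cRNA, per the labels' protocols, and hybridised to 1-colour Affymetrix arrays. The deposited values are linear intensity signals of 31099 probe sets, made with MAS5 per the submitters' processing notes, which give no version. The scaling target is not given in the sources used here. Array medians lay within 0.24 of each other in log2 units, so arrays were not centred (this was done above a limit of 0.5). Groups came from the titles, each array was taken as 1 animal, and precision is limited by having 4 arrays per diet. Limma's p-values set the difference between the diets against a spread between livers of the same diet. In the main fit that spread is not the set's own alone, as limma draws it toward that of sets with like signal. The ordinary model uses the set's own spread. With it the adjusted p of the 4 called SLC25 sets ran from 0.0989 to 0.171.

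Signals were put on the log2 scale without a pseudocount. Control sets (57) and the dimmest 50% by mean log2 value were left out. The dimmest of the 15521 sets that remained had a mean signal of 34.4. Symbols came from the platform annotation, updated by gene number through RefSeq (GRCr8). The diets were compared with limma 3.58.1 in R 4.3.3 (lmFit, eBayes with intensity trend, two-sided, Benjamini-Hochberg over all tested sets). Each adjusted p comes from this fit where no alternative is named. That of an alternative comes from its own fit, adjusted over the sets or genes it tested. Differences between the dimmest and brightest sets of a gene were fitted without the trend and adjusted over 2295 genes. Data were simulated for the comparison of the diets over 15521 sets. The main fit recovered 4 of 50 sets changed 1.25-fold, 20 of 50 changed 1.5-fold, 42 of 50 changed 2-fold and 45 of 50 changed 3-fold. It also called 7 unchanged sets there, and 0 sets in data simulated with no change. The simulated sets varied independently, each with its own spread, and held no difference in RNA quality between the diets.

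Values of each array are given for genes with a called set, the 8 brightest by signal, the 5 with the smallest p in each direction and chosen carriers of liver function, of which Slc25a47 and Slc25a51 were not analysed here. The members and lists were chosen with earlier results of these data known. Alternatives were another normalization, pseudocount, filter or limma setting, arrays left out, a replicate block, the beta-actin ratio as a covariate, and other ways to represent a gene.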

Additional observations from a re-analysis of the deposited data

Results flagged for a closer look

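In 106 groups of 4 arrays, 3 had a lowest array far from the other 3, and chance alone flags about 1 group in 20. All 3 were in control livers. Slc25a11 had 885 units in control liver 3, against 1027 to 1055 in the other control livers. The dimmer tested set of Slc25a23 had 106 units in control liver 3, against 162 to 168 in the others. Ucp2 had 132 units in control liver 1, against 165 to 169 in the others.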

How the results depend on the processing

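The main fit called 1 SLC25 gene lower in its brightest set and 4 SLC25 probe sets lower, and no alternative called one of the 40 genes higher. Genes called lower in the brightest set numbered 0 under quantile normalization, without the intensity trend, with the ordinary linear model per probe set, with only the brightest set of each gene, without persimmon peel arrays 1 and 3 together and with the beta-actin ratio as a covariate. They numbered 2 in the upper 30% by signal (Slc25a5 and Slc25a16), 2 with the probe sets of a gene averaged (Slc25a13 and Slc25a16), and 3 with array weights (Slc25a5, Slc25a13 and Slc25a16). Probe sets called lower numbered 2 under quantile normalization, 2 with no filter, 1 without the intensity trend, and 0 with the ordinary model, without persimmon peel arrays 1 and 3 and with the covariate. Over all tested sets the share called lower was 4.53% in the main fit. It was 3.85% under quantile normalization, 1.42% with no filter, 3.13% without the trend and 0.0193% with the ordinary model. It was 5.29% in the upper 30%, 5.64% with array weights and 0.85% with only the brightest set of each gene. Without persimmon peel arrays 1 and 3 it was 0.49%, and with the covariate 0%. With the sets of a gene averaged 3.1% of genes were lower. With each array left out in turn the genes ranged between 0 and 2 and the sets between 1 and 6. The share of all tested sets called lower ran from 1.89% to 6.07% in those fits. Slc25a16 lost its call under quantile normalization (-0.48, adjusted p = 0.0520). The dimmest Slc25a15 set lost its call under quantile normalization (adjusted p = 0.0627), and it and the dimmer Slc25a46 set lost theirs with no filter (0.0557 and 0.0636) and without the intensity trend (0.0701 and 0.0651). With the covariate the family median was -0.14, beside -0.11 over all tested sets, and the changes of Slc25a16 (0.0028) and of the dimmer Slc25a46 set (0.051) turned positive. The family median stayed between -0.08 and 0.02 under every other alternative. Same-numbered arrays of the diets did not deviate together (r between -0.08 and 0.05, and 1 of 4 matched its own number best), so the replicate numbers were not taken as pairs. A fit with the replicate number as a block left 1 gene (Slc25a16, adjusted p = 0.0195) and 4 sets lower. In that block the beta-actin difference of -0.30 had an exact p of 0.125, the smallest that 4 pairs allow. The difference ran from -0.34 to -0.26 with arrays left out, with an exact p of 0.0571 without any 1 control array. The differences between the dimmest and brightest sets of a gene that were called lower ranged from 0 to 3 with arrays left out, the 3 without persimmon peel array 2. Among all genes so tested the share called lower in those fits ran from 1.09% to 20.2%. The causes of these shifts were not tested, and the fits that leave arrays out also hold fewer arrays. With 4 arrays per diet, most changes near 1.25-fold were missed in the simulated data.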
